A study of Mus musculus with 12 samples.

Results

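The genes described here are 9 complement components and receptors of the mouse, namely the C1q chains C1qa, C1qb and C1qc, the components C2, C3 and Cfb, the inhibitor Serping1 and the receptors C3ar1 and C5ar1. They were chosen by name, with earlier results of these data known. A gene was measured where a transcript cluster of the array (a set of probes read as 1 transcript) carried its symbol alone. This held for 8 of the 9 genes, each with 1 transcript cluster, among 19938 genes of the array with a single symbol. C3, the component on which all routes of activation converge, had no such transcript cluster and was not analysed here.

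Gastrocnemius muscle was taken from male germ-free ICR mice (Tsl;ICR[GF]), 11 weeks old by the labels, that had received fecal microbiota transplantation (FMT) from ICR donors. RS mice received feces of sedentary donors and RT mice received feces of donors trained on a treadmill, with 6 mice and 6 arrays in each group. Both groups were of germ-free origin, ate a high-fat diet, and were fasted before the muscle was taken at 1 week. Mice of a group shared housing and received identical fecal samples, so donor training, fecal sample and cage cannot be told apart, and the p-values measure only the spread between these mice.

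Complement is a cascade of plasma proteins, made mostly by the liver and in part by macrophages and stromal cells within tissues. C1q bound to antibody or damaged surfaces starts the classical pathway, lectins start the lectin pathway, and the alternative pathway amplifies both. Each leads to cleavage of C3, to the release of the peptides C3a and C5a that act on leukocyte receptors, and to a membrane pore built by the terminal components. In skeletal muscle, complement is known from injury and repair, where it takes part in the recruitment of macrophages.

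The promoter sequences of the members with a window in the RefSeq table (GRCm38.p6) that was used are shown for C1qb, C1qc and C3ar1, whose levels did not overlap between the groups, and for C5ar1, the receptor with the smaller difference. Each runs from 250 bases before to 50 bases after the gene's start, is given 5' to 3' on the gene's own minus strand, and has motif matches in capitals. The windows are chr4:136886151-136886450 for C1qb, chr4:136892865-136893164 for C1qc, chr6:122856108-122856407 for C3ar1 and chr7:16259289-16259588 for C5ar1. C3, which was not measured, also had a window, which is not printed.
C1qb: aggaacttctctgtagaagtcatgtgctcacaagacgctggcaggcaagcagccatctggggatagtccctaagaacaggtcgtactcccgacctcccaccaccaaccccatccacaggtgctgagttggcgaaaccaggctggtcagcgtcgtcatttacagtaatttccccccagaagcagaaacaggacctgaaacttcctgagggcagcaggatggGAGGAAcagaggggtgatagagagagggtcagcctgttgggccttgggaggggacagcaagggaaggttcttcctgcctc
C1qc: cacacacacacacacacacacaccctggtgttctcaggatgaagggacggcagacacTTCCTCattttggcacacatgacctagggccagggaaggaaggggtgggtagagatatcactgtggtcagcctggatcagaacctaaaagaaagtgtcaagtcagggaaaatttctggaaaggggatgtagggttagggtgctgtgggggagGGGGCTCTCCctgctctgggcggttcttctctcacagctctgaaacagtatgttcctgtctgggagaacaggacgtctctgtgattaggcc
C3ar1: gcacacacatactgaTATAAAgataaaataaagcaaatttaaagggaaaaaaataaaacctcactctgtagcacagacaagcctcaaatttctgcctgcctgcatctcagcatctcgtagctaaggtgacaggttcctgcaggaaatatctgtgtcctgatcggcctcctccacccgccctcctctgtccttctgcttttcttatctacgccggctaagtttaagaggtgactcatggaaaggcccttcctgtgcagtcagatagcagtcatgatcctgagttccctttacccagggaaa
C5ar1: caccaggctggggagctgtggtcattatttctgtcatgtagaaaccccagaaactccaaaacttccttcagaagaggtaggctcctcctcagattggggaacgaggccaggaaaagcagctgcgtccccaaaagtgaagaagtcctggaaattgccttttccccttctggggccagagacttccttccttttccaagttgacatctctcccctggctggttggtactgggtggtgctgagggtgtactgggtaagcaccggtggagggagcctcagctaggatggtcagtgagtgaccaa

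The letters searched on both strands were those of the TATA box (TATAAA), the core of PU.1 sites (GAGGAA), the gamma-activated site (TTCNNNGAA), the C/EBP site (TTGCNNAA), and, by name, the interferon-stimulated response element and the NF-kappa-B consensus. The C1qb window held GAGGAA, 30 bases before the start. The C1qc window held the same letters on the other strand, 193 bases before the start, and a match to the NF-kappa-B consensus 41 bases before it. In the C3ar1 window only TATAAA was found, 235 bases before the start, and the C5ar1 window held none of the 6 motifs. The C3 window, not printed, held a C/EBP match 45 bases before the start and TATAAA after the start. Of 32851 promoter windows of this length, 28.3% held GAGGAA, 13.6% TATAAA, 8.46% the NF-kappa-B consensus, 10.8% the C/EBP site, 8.30% the gamma-activated site and 3.44% the interferon-stimulated response element. The matches do not overlap one another and describe letters only.

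Signal is given as log2 of the deposited array values, and a change is the RT mean minus the RS mean on that scale. A gene was called higher or lower where the limma p-value was under 0.05 and its Benjamini-Hochberg adjusted value over 28944 transcript clusters was under 0.1. Of the 8 measured complement genes, 7 were higher in RT than in RS, none was lower and C2 did not pass. Among all transcript clusters, 11.9% were called higher and 13% lower. The median change of the 8 genes was 0.72, against -0.01 over all transcript clusters. Genes above the median signal of the array were called higher more often (20.6%) than those below it (3.21%), and 6 of the 8 complement genes lay above it, all 6 of them called higher. The other pair were C2 and C5ar1, of which C5ar1 was called.

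The RS arrays 4 and 6 stood apart from the rest. They had the smallest spread of values over all transcript clusters, with SDs of 1.97 and 1.99 against 2.06 to 2.15 on the other 10 arrays, and lay at 43.0 and 43.4 on the first principal component, beyond the other RS arrays at -4.74 to 21.2 and the RT arrays at -30.8 to -9.55. Results are therefore also given without these 2 arrays and with array spread as a covariate. Spread was 1.97 to 2.13 in RS and 2.08 to 2.15 in RT, so the covariate can also remove part of the group difference. Without both arrays, 6 of the 8 genes were called higher, and with the covariate 2 were, C1qb and C3ar1. Of all 28944 transcript clusters, 1649 were called higher without both arrays and 732 with the covariate, against 3445 in the reported analysis.

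**Figure D1:**
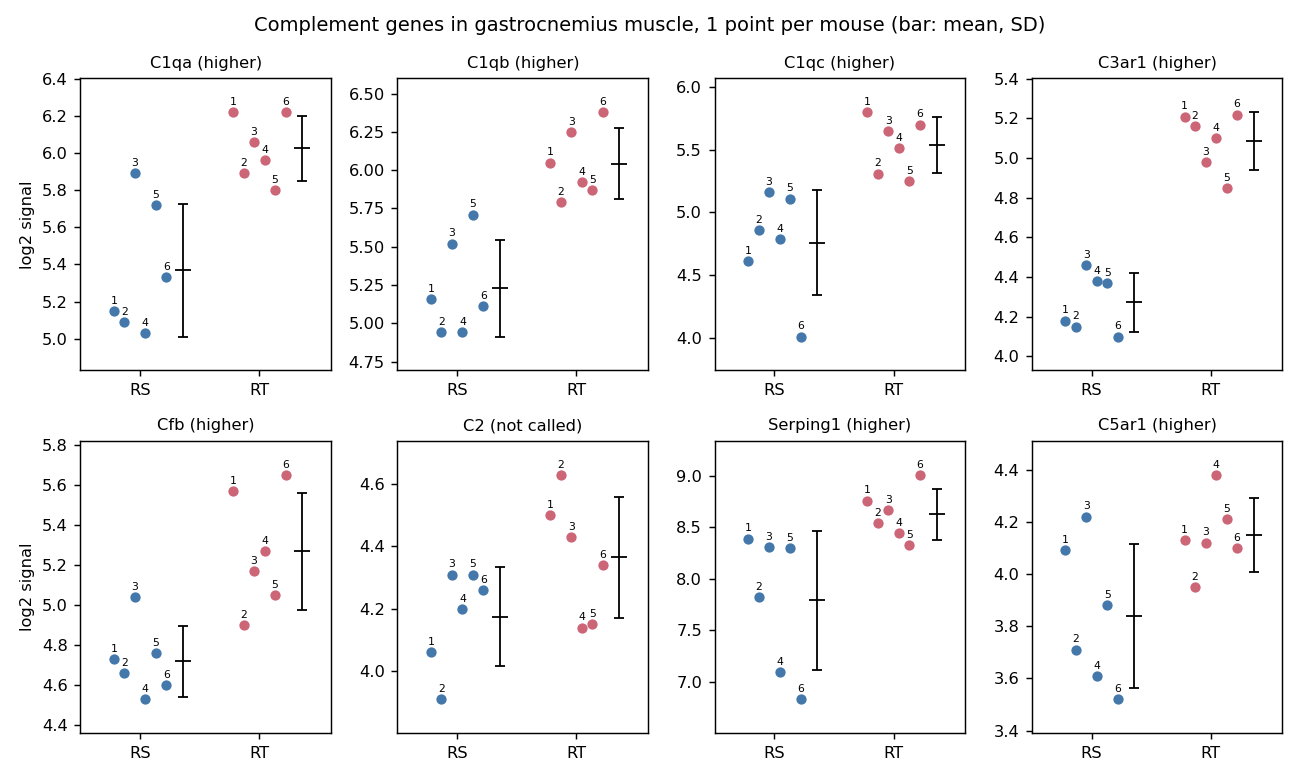
Log2 signal (y axis, scaled per gene) of the 8 measured complement genes in 6 RS and 6 RT mice (1 numbered point per mouse; bars beside the points, mean and SD). All RT points lie above all RS points for C1qb, C1qc and C3ar1, while the groups overlap for the other 5 genes.

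The 3 C1q chains, which together form the recognition molecule of the classical pathway and are made mainly by macrophages, were all higher in RT. C1qb ranged from 4.94 through a median of 5.14 to 5.71 in RS, and from 5.79 through 5.99 to 6.38 in RT. Every RT mouse was above every RS mouse. The change was 0.81 (SE 0.14, n = 6 per group; 1.76-fold; adjusted p = 0.00230 by limma; two-sided exact permutation p = 0.00216, the smallest that 924 splits allow).

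C1qc was between 4.01 and 5.16 in RS (median 4.82) and between 5.25 and 5.80 in RT (median 5.58). Here too the groups did not overlap, and for both C1qb and C1qc the highest RS mouse and the lowest RT mouse lay close together. C1qc was higher by 0.78 (SE 0.16; 1.72-fold; adjusted p = 0.00641 by limma; exact permutation p = 0.00216). Every RT array lay above every RS array for 2.69% of all transcript clusters, and below for 3.1%.

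C1qa was between 5.03 and 5.89 in RS (median 5.24) and between 5.80 and 6.22 in RT (median 6.01). The groups met at RS-3, with 5.89, which lay above the lowest RT mouse. The change was 0.66 (SE 0.14; 1.58-fold; adjusted p = 0.00756 by limma; exact permutation p = 0.00649). With the spread of the arrays as a covariate, C1qa was higher by 0.51 (adjusted p = 0.108) and C1qc by 0.58 (adjusted p = 0.105), neither past the threshold.

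The chains also varied together among mice of a group. After the group means were removed, C1qa and C1qb had a Pearson r of 0.87 over the 12 arrays, C1qa and C1qc 0.57, and C1qb and C1qc 0.58. The mean of the 3 chains was highest among RS mice in RS-3 and RS-5, at 0.40 above the RS mean in both, and lowest in RS-6, at 0.30 below it. These values share the array, its RNA and its normalization, and are given as a description.

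The genes most like the C1q mean across the 12 arrays, group means removed, were Vim, Pcsk6, Cd34, Fstl1 and Fcgr2b. Their Pearson r was 0.95 for Vim (Spearman's rho 0.92), 0.94 for Pcsk6 (0.92), 0.93 for Cd34 (0.95), 0.93 for Fstl1 (0.92) and 0.93 for Fcgr2b (0.68). They were picked as the highest of 19930 genes. Vim encodes an intermediate filament of mesenchymal and myeloid cells, Cd34 a surface protein of endothelial and stromal progenitor cells, and Fcgr2b the inhibitory Fc receptor of macrophages and B cells. All 5 were called higher in RT, by 0.83 for Vim, 0.66 for Pcsk6, 0.46 for Cd34, 0.60 for Fstl1 and 0.43 for Fcgr2b. Among all transcript clusters 11.9% were called higher, and 20.6% of those above the median signal.

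C2 and Cfb encode homologous proteases that cleave C3, C2 in the classical and lectin pathways and Cfb in the alternative pathway. Cfb ranged from 4.53 through 4.70 to 5.04 in RS and from 4.90 through 5.22 to 5.65 in RT, with a narrow overlap. It was higher by 0.55 (SE 0.13; 1.46-fold; adjusted p = 0.0107 by limma; exact permutation p = 0.00433). C2 ranged from 3.91 through 4.23 to 4.31 in RS and from 4.14 through 4.38 to 4.63 in RT, and 4 of the 6 RT mice lay above all RS mice.

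The change of C2 was 0.19 (95% interval -0.02 to 0.40; adjusted p = 0.204 by limma; exact permutation p = 0.0996) and did not pass. It passed after a further quantile normalization (adjusted p = 0.0839), centering of each array on its median (0.083) and cyclic loess (0.0834). The change of Cfb exceeded that of C2 by 0.36. Differences between the changes of 2 genes are given as a description only, since the pairs were picked after their values were seen. With the spread as a covariate Cfb was higher by 0.38 and did not pass (adjusted p = 0.147).

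Serping1 encodes the C1 inhibitor, which inactivates the proteases C1r, C1s and MASP of the classical and lectin pathways. It ranged from 6.83 through 8.06 to 8.39 in RS and from 8.33 through 8.61 to 9.01 in RT. RS-6 and RS-4 were the lowest mice, at 6.83 and 7.09, while the other 4 RS mice were between 7.82 and 8.39. The change was 0.83 (SE 0.24; 1.78-fold; adjusted p = 0.0279 by limma; exact permutation p = 0.00433). When RS-4 and RS-6 were left out it fell to 0.42 (adjusted p = 0.0848), and with the spread as a covariate 0.23 (adjusted p = 0.332).

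C3ar1 and C5ar1 encode the receptors of C3a and C5a on macrophages and granulocytes. C3ar1 ranged from 4.10 through 4.28 to 4.46 in RS and from 4.85 through 5.13 to 5.22 in RT. The gap between the groups was wider than the range within either. It was higher by 0.81 (SE 0.09; 1.76-fold, 95% interval 1.54 to 2.01; adjusted p = 2.87e-04 by limma; exact permutation p = 0.00216), and its change stayed between 0.76 and 0.89, and called, in all 23 alternative analyses.

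C5ar1 ranged from 3.52 through 3.79 to 4.22 in RS and from 3.95 through 4.12 to 4.38 in RT. Only 1 RT mouse, RT-4, lay above all RS mice. The change was 0.31 (SE 0.12; 1.24-fold; adjusted p = 0.0790 by limma; exact permutation p = 0.0433). This call was lost when RS-4 and RS-6 were left out (0.17; adjusted p = 0.346) and with the spread as a covariate (0.13; adjusted p = 0.597), and was made in 10 of the 23 alternatives. The change of C3ar1 exceeded that of C5ar1 by 0.50.

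**Figure D2:**
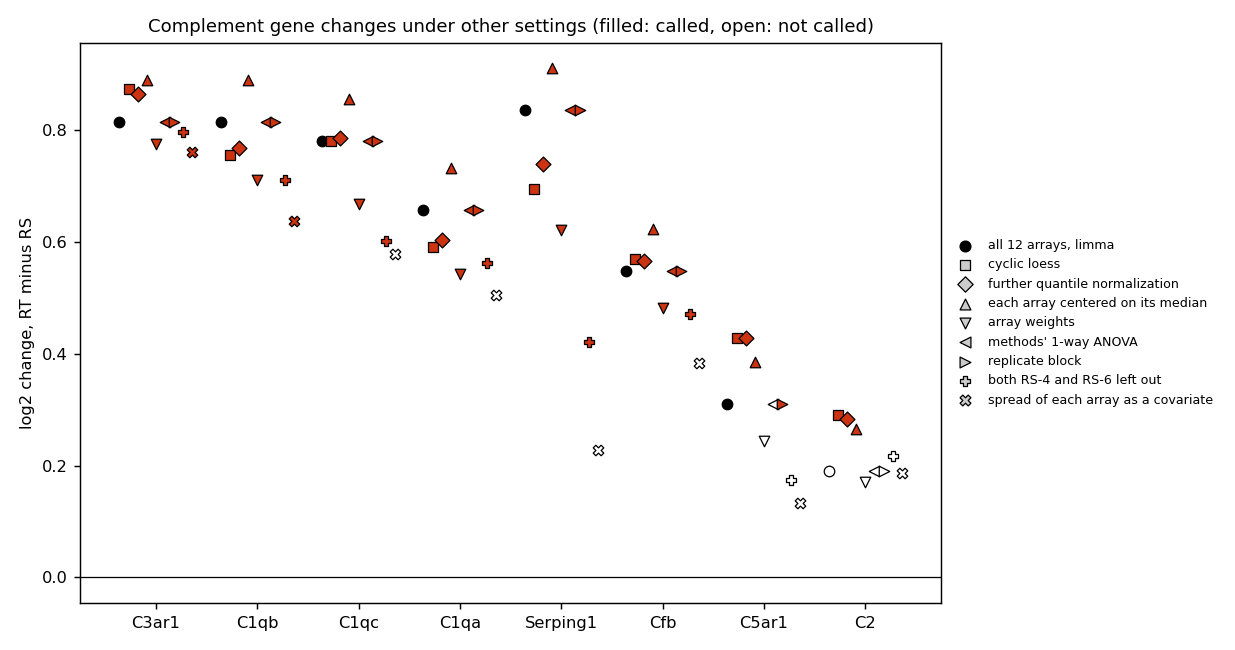
RT minus RS change (y axis, log2) of each measured complement gene in the reported analysis (circles) and under other scalings, tests, covariates and array sets (other symbols; filled, called; open, not called). C3ar1 and C1qb are called under every setting shown, while Serping1 reaches down to 0.23 and C5ar1 to 0.13.

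Of 46 further complement genes, 43 were measured and the others were not analysed here. RT was higher for 11 and lower for 5, 27 did not pass, and the median change was 0.03. Of the 18 above the median signal of the array, 9 were called higher and 0 lower by limma, and of the 25 below it 2 were called higher and 5 lower, against 15.3% of all transcript clusters below the median called lower. Above the median 20.6% of all transcript clusters were called higher, and below it 3.21%. When RS-4 and RS-6 were left out, 6 genes of the list were called, namely C1ra, C4b, Colec12, Itgb2 and Vtn as higher and Fcnb as lower. With the spread as a covariate 4 of them were, C4b, Colec12, Itgb2 and Fcnb. Of all 28944 transcript clusters, 3440 were called in either direction without RS-4 and RS-6, and 1620 with the covariate.

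In the classical pathway 3 of 5 genes were called higher, against 11.9% of all transcript clusters and 20.6% of those above the median signal. C1ra, a protease of the C1 complex, was higher by 0.56 (SE 0.14; adjusted p = 0.0162 by limma) with no overlap, its substrate protease C1s1 by 0.46 (adjusted p = 0.0686), and C4b, the component cleaved by C1s, by 0.45 (adjusted p = 0.0652). C1s2 (0.06) and C4a (0.10) did not pass. C4a and C4b, and C1ra and C1rb, are near-identical pairs that probes may not separate. The C1s1 call was lost after quantile normalization (0.40) and cyclic loess (0.38). The change of C1s1 was 0.20 without RS-4 and RS-6 and 0.09 with the spread as a covariate, where that of C1ra was 0.39, none of these past the threshold. The C4b call was kept in both settings but lost when RS-1, RS-2, RS-3, RT-1, RT-2, RT-3 or RT-6 was left out alone. Its change was then 0.35 to 0.45 (adjusted p = 0.103 to 0.135 by limma).

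In the lectin pathway, Colec12, a scavenger collectin of vascular cells, was higher by 0.65 (SE 0.09; adjusted p = 6.91e-04 by limma), with no overlap. Fcnb, a ficolin of myeloid cells, was lower (-0.24; adjusted p = 0.0496), as was the collectin Colec10 (-0.26; adjusted p = 0.0786). The remaining 6 genes did not pass, among them Fcna (-0.02) and the protease Masp2 (-0.16). Properdin (Cfp), which stabilizes the alternative convertase and was the 1 alternative pathway gene of the list measured, had a change of 0.16 (adjusted p = 0.323).

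Of 7 terminal components, C7 was higher (0.51; adjusted p = 0.0400) and C9, which forms the pore, was lower (-0.26; adjusted p = 0.0907), while C8g (0.04) and C8a (-0.15) did not pass. The C7 call was lost after quantile normalization (adjusted p = 0.107), after cyclic loess (0.106), without RS-4 and RS-6 (0.141) and with the spread as a covariate (0.34; adjusted p = 0.354), and C9 was at -0.13 and -0.07 under the latter pair.

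Of 6 soluble regulators, Vtn, which keeps the terminal complex from membranes, was higher (0.60; adjusted p = 0.0384) and Cpn1, the catalytic subunit of the carboxypeptidase that inactivates C3a and C5a, was lower (-0.32; adjusted p = 0.0380). The change of Vtn was 0.33 with RS-4 and RS-6 left out (adjusted p = 0.0937) and 0.22 with the spread as a covariate (adjusted p = 0.494). Clu (0.21) and Cpn2 (-0.04) did not pass. Of 6 membrane regulators, Cd59a, which blocks pore assembly, was higher (0.61; adjusted p = 0.0476), with possible shared signal from its paralog Cd59b, and Cd55 (0.19) and Cr1l (0.08) did not pass. The Cd59a call was lost with RS-4 and RS-6 left out (0.30; adjusted p = 0.239) and with the spread as a covariate (0.14; adjusted p = 0.620).

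Of 9 further receptors and C1q-binding proteins, 4 were higher in RT, against 11.9% of all transcript clusters and 20.6% above the median signal. Cd93 was higher by 0.61 (adjusted p = 0.0229), Calr by 0.31 (adjusted p = 0.0598), and the subunits of complement receptor 3, Itgam by 0.41 (adjusted p = 0.0632) and Itgb2 by 0.42 (adjusted p = 0.0172, no overlap). C1qbp (0.03) and Itgax (-0.05) did not pass. Itgb2 was also called without RS-4 and RS-6 and with the spread as a covariate. Cd93 (0.41 and 0.31), Calr (0.17 and 0.10) and Itgam (0.27 and 0.18) were not called in either, and Calr was not after quantile normalization (0.20) or cyclic loess (0.17).

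C5ar2, the alternative receptor of C5a, was lower in RT (-0.27; SE 0.11; adjusted p = 0.0928), opposite in sign to C5ar1. The changes of C5ar1 and C5ar2 lay 0.58 apart, and 0.43 apart without RS-4 and RS-6, where neither gene was called. All 5 genes of the list called lower were below the median signal of the array. Mean log2 signal in RS was 2.60 for C9 and 2.89 for Cpn1, no higher than the 2.92 of the hepatocyte gene albumin (Alb). At such levels a lower call does not establish reduced expression. The lower calls of Fcnb, Colec10, C9 and C5ar2 were lost, with the sign kept, under quantile normalization, cyclic loess and median centering, while Cpn1 remained called lower under these 3 but not with RS-4 and RS-6 left out (-0.23; adjusted p = 0.166) or with the spread as a covariate (-0.21; adjusted p = 0.327).

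**Figure D3:**
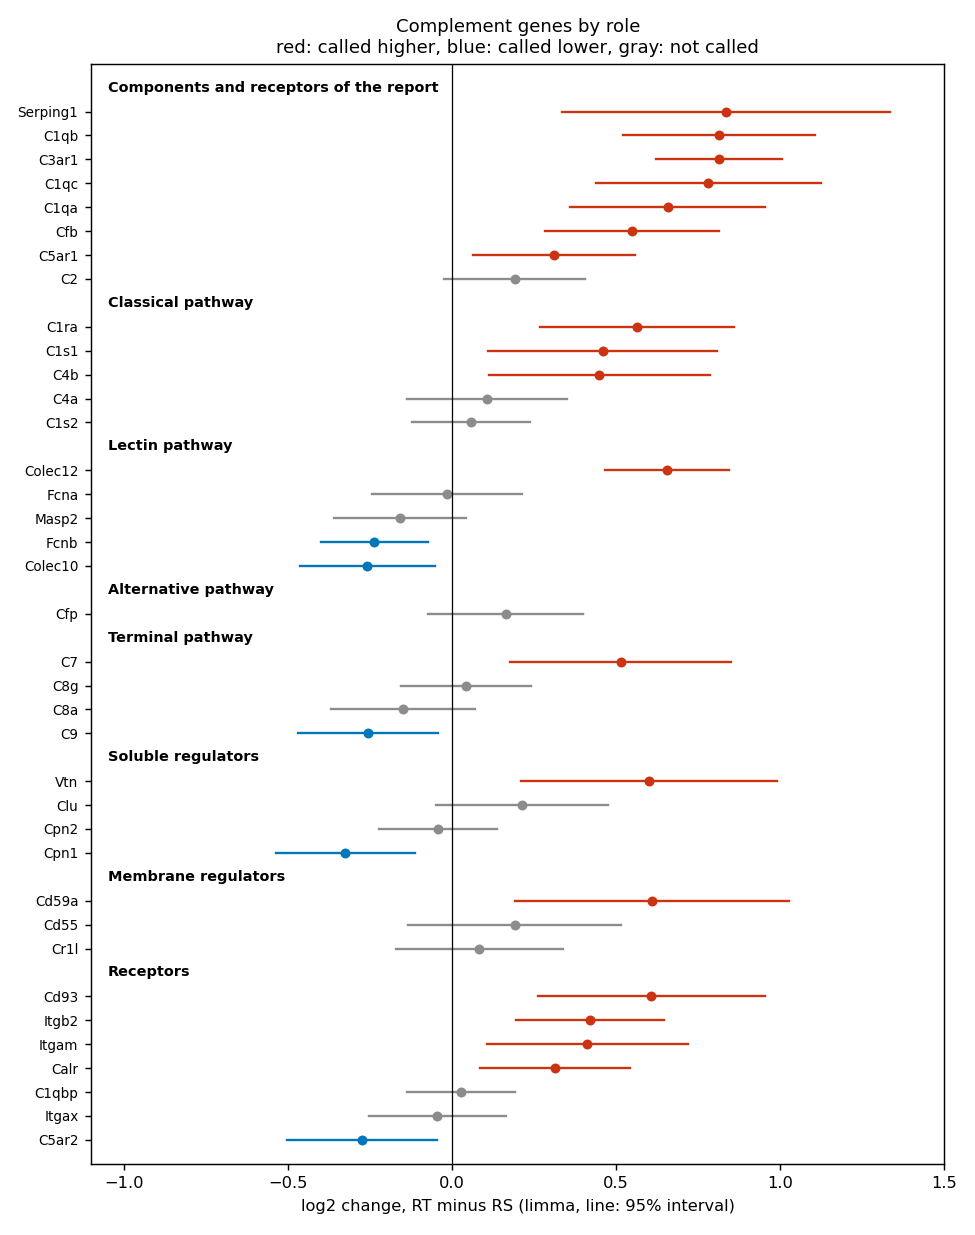
RT minus RS change (x axis, log2; points, estimates; lines, 95% intervals) of the 8 measured complement genes at the top and, below, of the further complement genes named in the text, by role (red, called higher; blue, called lower; gray, not called). The 5 lower calls lie in the lectin, terminal, soluble regulator and receptor groups.

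Marker genes of the cell types that muscle can hold were read beside these results. In bulk tissue, more cells of a type and more RNA per cell cannot be told apart. Macrophage markers were higher for 11 of 16 genes, with a mean log2 signal of 4.59 to 4.97 in RS and 5.11 to 5.40 in RT. Fcgr3 (0.37), Mertk (0.27), Siglec1 (0.14), Aif1 (0.125) and Fcgr1 (-0.10) did not pass. Among all transcript clusters 11.9% were called higher, and 20.6% of those above the median signal. Among the defining markers, Cd68 was higher by 0.85, the growth factor receptor Csf1r by 0.81 and Adgre1 (a surface receptor of mature macrophages) by 0.44, and none was at 0. The paper measured Adgre1, under its protein name, by PCR in gastrocnemius muscle of these recipient groups. It reports lower levels in RT, as a trend only. It also reports lower Ccl2 in RT and proposes that macrophage infiltration was suppressed. The array change of Adgre1 had the opposite sign, and the cause of this difference was not tested. RS-3 and RS-5, the RS mice with the highest C1q mean, also had the highest macrophage list means of the RS group, 4.97 and 4.90. The same RS mice were highest for the fibroblast list described next, at 8.01 and 7.87, so this ordering was not particular to macrophage markers.

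Fibroblast and fibro-adipogenic progenitor markers were higher for 10 of 11 genes (7.06 to 8.01 in RS and 8.04 to 8.42 in RT), endothelial markers for 6 of 10 (6.26 to 6.66 and 6.69 to 7.04) and adipocyte markers for 6 of 10 (5.17 to 5.56 and 5.52 to 6.37). RS-6 and RS-4, lowest for Serping1, were also lowest for the fibroblast list, at 7.06 and 7.31. Without RS-4 and RS-6 the macrophage count was 10, the fibroblast count 8, the endothelial 4 and the adipocyte 5, and with the spread as a covariate 7, 2, 2 and 2. Of all 28944 transcript clusters, 1649 and 732 were called higher under these settings. The part of these cell types in the complement results was not tested.

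Markers of the other cell types were not called higher. Of 12 muscle fiber markers none was called by limma (11.97 to 12.22 in RS and 12.12 to 12.20 in RT), and Ckm, Acta1 and Myh4 lay near the top of the array's range, as the labelled tissue would have. None of 10 neutrophil markers was called, 2 of 8 lymphocyte markers were lower, and 2 of 11 hepatocyte markers, Apoa1 and Apoa2, were lower. Among all transcript clusters 13% were called lower, and 15.3% of those below the median signal. The neutrophil list mean was 2.81 to 3.11 in RS and 2.75 to 2.98 in RT. That of the lymphocyte list was 3.26 to 3.50 in RS and 3.12 to 3.32 in RT. At signals this low, a missing call does not show that these cells were unchanged. The hepatocyte list mean was 3.16 to 3.55 in RS and 3.05 to 3.19 in RT, with albumin (Alb) at 2.92 ± 0.18 in RS and 2.83 ± 0.22 in RT (SD, n = 6 per group).

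**Figure D4:**
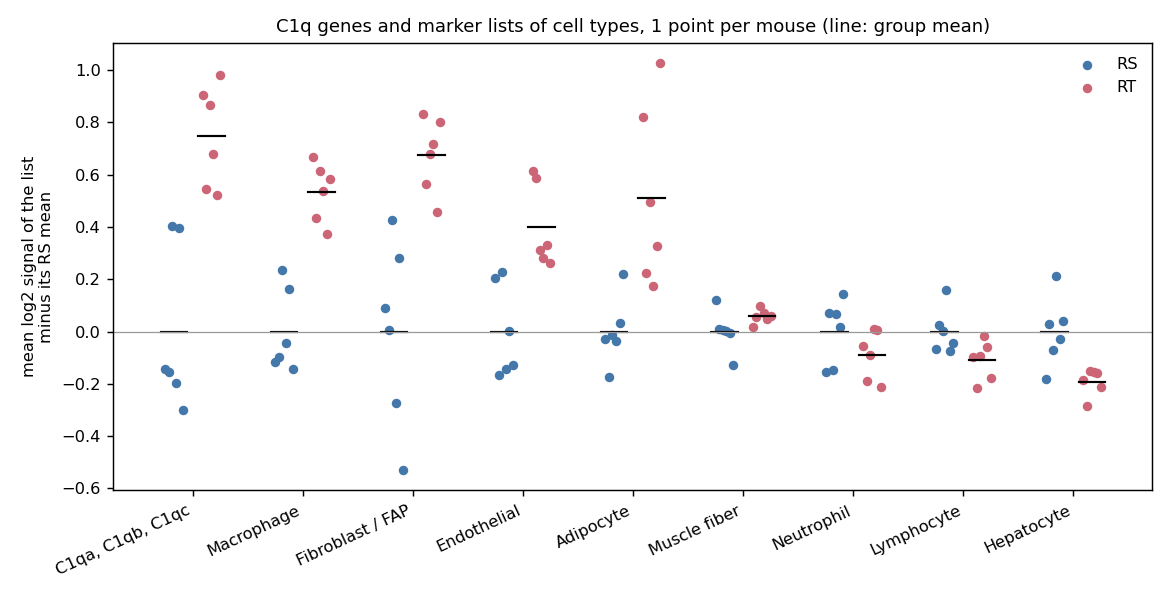
Mean log2 signal of the C1q chains and of each cell type marker list in each mouse, minus the RS mean of that list (y axis; 1 point per mouse; lines, group means). The macrophage, fibroblast and endothelial lists do not overlap between RS and RT, and the muscle fiber list does.

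Genes next to the complement genes on the chromosome were taken from the order of the RefSeq table. Of 10 neighbors, 3 were higher, none was lower by limma and the median change was -0.05. Among all transcript clusters 11.9% were called higher and 13% lower, and above the median signal 20.6% were called higher. Beside the C1q cluster, Lactbl1 (-0.21) and Epha8 (-0.19) did not pass, nor did Nelfe (-0.03) and Zbtb12 (-0.06) beside C2 and Cfb, Ypel4 (-0.07) beside Serping1, or Dhx34 (-0.04) and Ccdc9 (-0.21) beside C5ar1. The higher neighbors were Ube2l6 beside Serping1 (0.37; adjusted p = 0.058), and Foxj2 (0.36; adjusted p = 0.0336) and Necap1 (0.26; adjusted p = 0.057) beside C3ar1. Without RS-4 and RS-6 1 of these was called, and with the spread as a covariate 0 by limma. Of all 28944 transcript clusters, 1649 and 732 were called higher under these settings.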

How the data were processed

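RNA from gastrocnemius muscle of 6 RS and 6 RT mice was hybridized to Affymetrix Mouse Gene 1.0 ST arrays, 1 mouse per array. The authors deposited log2 values per transcript cluster (0.53 to 13.67), summarized by RMA according to the submitters' processing notes. The methods name both RMA and SST-RMA, and the genome build of the array annotation is not given in the sources used here. Precision is set by the number of arrays.

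Of 28944 transcript clusters, 21789 had 1 gene symbol, 1621 several and 5534 none, and genes were named only from clusters with 1 symbol. The brightest cluster stood for a gene with several. RT was compared with RS by limma 3.58.1 in R 4.3.3 (lmFit and eBayes, two-sided, no covariate, all 12 arrays). Calls used the thresholds of the methods, p under 0.05 and Benjamini-Hochberg adjusted p under 0.1. The 8 measured complement genes were also tested by exact permutation over 924 splits. RMA usually gives all arrays the same distribution, but the deposited arrays had medians of 4.40 to 4.63, which can shift dim genes against bright ones, so other scalings were tried. The test was checked on simulated data. RefSeq tables (GRCm38.p6) gave gene order and promoters.

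The complement genes, role lists, marker lists and motifs were chosen with earlier results of these data known. All 9 complement genes are named. Within a role, every called gene was named and up to 2 of the brightest that were not called, with the nearest measured protein-coding neighbors and the 5 genes most like the C1q mean. Alternatives were other scalings, filters, tests, weights, thresholds, a replicate block and leaving out arrays. Cyclic loess, the spread covariate and leaving out RS-4 and RS-6 together were chosen after seeing the data.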

Additional observations from a re-analysis of the deposited data

Results flagged for a closer look

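In 4 of 90 groups of 6 arrays, over 45 values that were the complement genes named and the means of the marker lists, 1 array lay far from the others of its group by Dixon's criterion, which chance meets in about 1 of 20 groups. Fcna was highest in RT-4, at a log2 signal of 5.44 with the next array at 5.06. Colec12 was lowest in RS-6, at 4.80 with the next at 5.03. Vtn was lowest in RT-5, at 6.20 with the next at 6.48, and C1qbp was lowest in the same mouse, at 7.32 with the next at 7.53. None of the 4 genes is among the 9 that the report opens with.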

How the results depend on the processing

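All 8 measured complement genes kept a positive change in all 23 alternatives to the reported analysis. The count of 7 called was 2 with array spread as a covariate and lay between 6 and 8 in all others, including 6 to 7 when 1 array was left out. C1qb and C3ar1 were called in all 23, and C1qa, C1qc, Cfb and Serping1 in 22. The count of 16 further complement genes called was 9 after quantile normalization, 9 after cyclic loess, 7 by the methods' ANOVA, 9 at an adjusted p under 0.05, 6 without RS-4 and RS-6, 4 with the spread as a covariate, and 9 to 18 with 1 array left out. It was 9 without RS-4, RS-6 or RT-6. Over all transcript clusters the count of 7209 was 4399 at an adjusted p under 0.05, 3440 without RS-4 and RS-6, 1620 with the spread as a covariate, and 4924 to 9379 with 1 array left out. Centering each array on its median raised the share of calls that were higher from 47.8% to 70.9%. The cause of these shifts was not tested. With the replicate number as a block the counts were 7, 15 and 6047. Same-numbered mice deviated together by correlations of -0.24 to 0.11, and 0 of 6 were closest to their own number, so the numbers were not taken as pairs. C2 and C5ar1 lay below the median signal of the array, where 3.21% of transcript clusters were called higher against 20.6% above it.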
